A study of Rattus norvegicus with 12 samples.

Results

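The genes described are the PGC-1 coactivators and the nuclear factors of mitochondrial biogenesis that work with them, *Ppargc1a*, *Ppargc1b*, *Pprc1*, *Nrf1*, *Gabpa*, *Esrra*, *Tfam*, *Tfb2m*, *Polrmt* and *Polg*. A probe was assigned to one of them when its RefSeq accession, without the version, carries that symbol in the rat gene table. All 10 genes were on the arrays, through 11 probes, among 16581 named genes, and 9 of them were tested, among 10741 named genes tested. The cells were rat L6 myotubes, made from a skeletal muscle cell line by differentiation in horse serum, for 6 days by the sample labels and 7 days by the methods of the study. The control myotubes received DMSO only, and the others received 60 µM of GR24, a synthetic strigolactone analogue, of pinosylvin or of resveratrol, all dissolved in DMSO and all for 24 h. Each of these 4 groups has 3 arrays, from 3 experiments on the same batch of cells, so the p-values measure the spread between cultures of 1 batch of 1 cell line.

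The PGC-1 coactivators do not bind DNA themselves. They dock on transcription factors such as nuclear respiratory factor 1 (NRF-1, a protein other than Nrf2), the ETS factor GABP and the estrogen-related receptors, which switch on nuclear genes for mitochondrial proteins, among them the factors that transcribe and copy mitochondrial DNA. In skeletal muscle, PGC-1α is best known as a coactivator that increases with endurance exercise and raises oxidative capacity.

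On each 1-colour array, levels are given as scaled log2 levels, the log2 of the background-subtracted spot signal from which the array's own 75th percentile was taken, so a level of 0 lies at that percentile. Levels of different probes are not compared, except to choose the probe that represents a gene. A gene with several tested probes is represented by its brightest, judged by the mean of all 12 arrays. Adjusted p-values are from limma, with all 12 arrays in 1 fit and Benjamini-Hochberg adjustment over 24279 tested probes, and a call means an adjusted p under 0.05. The 3 comparisons with the control use the same 3 control arrays. Slide 1 carried replicates 1 and 2 of all 4 groups and slide 2 carried replicate 3, so within-slide differences are given beside the results, and the slide coincides with the scan. The number of arrays limits the precision of every value.

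The muscle identity of the cells was checked first, with markers listed by cell type. All 13 myotube markers on the arrays were well above background on every control array. With GR24, 10 of the 13 were lower and 0 were higher, with a median log2 fold change of -1.46 (-1.47 on slide 1 and -1.44 on slide 2), and at an unadjusted p under 0.05 the count in either direction was also 10. The summed scaled signal of these markers, on the linear scale, was 948 to 1070 on the control arrays, 400 to 431 with GR24, 1040 to 1130 with pinosylvin and 823 to 910 with resveratrol. *Myog*, a transcription factor of muscle differentiation, had a log2 fold change of -5.83 with GR24, and the signal of *Myod1*, another, was at least 3.21-fold lower, a bound because it was not well above background on any GR24 array (fitted means -6.57 and, in the control, -4.02). With resveratrol 6 of the 13 were lower, with a median of -0.30, and with pinosylvin 2 were higher (*Myog* and *Tnnt3*) and 1 lower (*Myh8*), with a median of 0.18. With the replicate number as a block 6 were higher and 1 lower with pinosylvin, and 9 lower with resveratrol and 11 with GR24. Fewer myotubes and less RNA per myotube cannot be told apart in these bulk samples. The part of this marker shift in the results that follow was not tested.

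Markers of other cell types were also measured. Of 6 fibroblast markers, all well above background on every array, 5 were lower and 1, *Pdgfra*, higher with GR24, and their summed scaled signal was 358 to 395 on the control arrays and 245 to 255 with GR24. With pinosylvin *Lum* and *Pdgfra* were higher and *Thy1* and *Col1a1* lower, with sums of 335 to 374, and with resveratrol *Pdgfra* was higher and *Col1a1* lower, with sums of 302 to 321, all below the control sums. The 3 smooth muscle markers summed to 43.8 to 48.5 on the control arrays and 9.18 to 9.89 with GR24. Their sums were 44.8 to 48.3 with pinosylvin and 38.5 to 42.3 with resveratrol, where *Myh11* was lower. On the control arrays 0 of the 5 adipocyte markers, such as *Adipoq*, and 0 of the 3 hepatocyte markers, such as *Alb*, were well above background. Of the 4 endothelial markers, *Cdh5* and *Tek* were well above background on all 3 control arrays, *Kdr* on 1 and *Pecam1* on 0, and of the 4 leukocyte markers *Cd68* and *Csf1r* were on all 3, *Adgre1* on 1 and *Ptprc* on 0. The leukocyte list summed to 0.168 to 0.3 in the control and 0.749 to 0.805 with GR24. Of the 2 leukocyte markers tested, 1 was higher with GR24, *Cd68*, a lysosomal protein gene (log2 fold change 2.67).

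With GR24, 6 of the 9 tested members passed the threshold against the control, 5 of them higher and 1 lower. Of all tested probes, 57.1% passed in this comparison, 31.5% higher and 25.5% lower. With pinosylvin 0 of 9 passed, and 2 (*Tfb2m* and *Esrra*) had an unadjusted p under 0.05, where 16.6% of all probes passed, 8.28% higher and 8.27% lower. With resveratrol 3 of 9 passed, 2 higher and 1 lower, where 17% of all probes passed, 7.99% higher and 8.99% lower. With the replicate number as a block, the probes called went from 13854 to 16164 with GR24 (66.6% of all probes), from 4019 to 6947 with pinosylvin (28.6%) and from 4123 to 6769 with resveratrol (27.9%). The members called under this block were 8 with GR24, 0 with pinosylvin and 3 with resveratrol. The median log2 fold change of the 9 members was 0.55 with GR24, 0.10 with pinosylvin and 0.04 with resveratrol, beside 0.03, 0.05 and 0.01 for all tested probes. All 9 were well above background on all 12 arrays, so none entered the test through 1 group only.

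*Ppargc1a*, which encodes PGC-1α, was not well above background on any of the 12 arrays. Its scaled log2 levels were -7.30, -6.30 and -6.44 in the control, -7.09, -6.75 and -7.15 with GR24, -5.65, -4.82 and -5.16 with pinosylvin, and -6.99, -5.97 and -5.54 with resveratrol. The processed signal behind them was 6.17 to 12 in the control, 6.37 to 7.80 with GR24, 16.2 to 25.4 with pinosylvin and 7.15 to 22.0 with resveratrol, where the lowest signal well above background was 21.4 to 33.5 across the arrays. A probe at this brightness gives no fold change, the groups were not ranked by it, and it was not tested.

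*Ppargc1b* encodes PGC-1β, the closest relative of PGC-1α, and its levels were -2.62, -2.66 and -3.12 in the control, -2.63, -2.41 and -2.44 with GR24, -2.59, -2.51 and -2.89 with pinosylvin, and -2.50, -2.80 and -2.67 with resveratrol. The 4 groups overlapped, and the lowest value was the control array of slide 2. Against the control the log2 fold change was 0.31 with GR24 (95% interval -0.03 to 0.64, adjusted p = 0.109), 0.14 with pinosylvin (-0.20 to 0.47, adjusted p = 0.621) and 0.15 with resveratrol (-0.19 to 0.48, adjusted p = 0.605), none past the threshold. On slide 1 the GR24 difference was 0.12 and on slide 2 it was 0.68, without control replicate 3 it was 0.15, and with the percentile over all spots *Ppargc1b* passed (0.41, adjusted p = 0.0298).

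*Pprc1* encodes PRC, the remaining coactivator of the family. On the 12 arrays it had levels of 1.90, 1.85 and 1.87 in the control, 2.49, 2.56 and 2.24 with GR24, 2.02, 1.89 and 1.82 with pinosylvin, and 1.87, 1.84 and 1.72 with resveratrol. Every GR24 array lay above every array of the other groups, and the pinosylvin and resveratrol arrays overlapped the control. GR24 raised it by a log2 fold change of 0.55, or 1.47-fold (SE 0.09, adjusted p = 0.000371), with 0.65 on slide 1 and 0.37 on slide 2. With pinosylvin it was 0.04 (95% interval -0.16 to 0.24) and with resveratrol -0.06 (-0.26 to 0.14).

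The named genes whose profile was most like that of each coactivator were found by the root mean square difference over the 12 arrays, each gene taken relative to its control mean, among 10736 genes. For *Pprc1* they were *Trip12* (0.0429), *Poglut2* (0.0478), *Ralgdsl2* (0.0504), *Armt1* (0.0569) and *Chtop* (0.0587). For *Ppargc1b* they included *Rabac1* (0.105), *Tom1* (0.107), *Atg9a* (0.110) and *Tmub2* (0.110). The likeness is a description of these arrays.

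*Nrf1* encodes the transcription factor NRF-1. Its brighter probe had scaled log2 levels of -0.98, -0.76 and -1.30 in the control, -1.52, -1.23 and -1.42 with GR24, -1.37, -1.14 and -1.29 with pinosylvin, and -1.39, -1.82 and -1.71 with resveratrol. The resveratrol arrays all lay below the control arrays, while the GR24 and pinosylvin arrays overlapped them at the control array of slide 2. With resveratrol the log2 fold change was -0.62, to 0.648 of the control (SE 0.15, adjusted p = 0.0183), with -0.73 on slide 1 and -0.41 on slide 2. The dimmer *Nrf1* probe had levels of -3.41, -3.81 and -3.06 in the control and -4.09, -3.99 and -3.35 with resveratrol, which overlapped, and its log2 fold change was -0.39 (95% interval -1.01 to 0.24, adjusted p = 0.429). The call of the brighter probe was lost without control replicate 1 (adjusted p = 0.0603), control replicate 2 (0.0680), resveratrol replicate 2 (0.0733) or resveratrol replicate 3 (0.0621), with no filter on dim probes (0.0536) and with only the 6 arrays compared (0.0734), in a range of 0.00694 to 0.0734 over all alternatives.

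With GR24, the brighter *Nrf1* probe had a log2 fold change of -0.38 (95% interval -0.71 to -0.04, adjusted p = 0.0573), with -0.50 on slide 1 and -0.12 on slide 2. Past the threshold in 10 of 28 alternatives, its adjusted p was 0.0480 with the replicate number as a block, 0.0125 without control replicate 3, 0.0463 without GR24 replicate 2 and 0.0418 without resveratrol replicate 1, in a range of 0.00557 to 0.206 over all alternatives. With an array left out its log2 fold change ran from -0.519 to -0.250. On the dimmer probe the GR24 levels were -4.21, -4.11 and -4.01. There the GR24 and control arrays did not overlap, and the log2 fold change was -0.68 (95% interval -1.31 to -0.06, adjusted p = 0.0608, or 0.00476 with the replicate block). With pinosylvin the brighter probe had -0.25 (95% interval -0.59 to 0.09).

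*Gabpa* encodes the DNA-binding subunit of GABP, and its levels were 2.20, 2.10 and 2.12 in the control, 1.99, 2.01 and 1.84 with GR24, 2.14, 1.93 and 2.05 with pinosylvin, and 2.15, 2.18 and 2.20 with resveratrol. The GR24 arrays lay just below the control arrays, and the pinosylvin and resveratrol arrays overlapped the control. The log2 fold change with GR24 was -0.19 (95% interval -0.35 to -0.02, adjusted p = 0.0498), with -0.15 on slide 1 and -0.27 on slide 2. This call lies at the threshold: it was lost in 18 of 28 alternatives, among them the leaving out of any array other than pinosylvin replicates 1 and 2, the deposited table of normalized values (-0.07, adjusted p = 0.440) and the percentile taken over all spots (-0.09, adjusted p = 0.286), in a range of 0.0314 to 0.440. The log2 fold change was -0.10 with pinosylvin (95% interval -0.26 to 0.07) and 0.04 with resveratrol (-0.13 to 0.20).

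*Esrra* encodes the orphan nuclear receptor ERRα, through which PGC-1 coactivators act on genes of oxidative metabolism. In the 4 groups it measured 3.93, 3.88 and 4.01 in the control, 4.69, 4.75 and 4.53 with GR24, 4.17, 4.04 and 4.17 with pinosylvin, and 4.32, 4.30 and 4.24 with resveratrol. Each compound's arrays lay above every control array, the GR24 arrays lay above all others, and the resveratrol arrays lay above the pinosylvin arrays. With GR24 the log2 fold change was 0.72, or 1.65-fold (SE 0.074, adjusted p = 1.28e-05), with 0.82 on slide 1 and 0.52 on slide 2. With resveratrol it was 0.35, or 1.27-fold (SE 0.074, adjusted p = 0.00893), with 0.41 and 0.23 on the slides. With pinosylvin it was 0.19 (95% interval 0.02 to 0.35, adjusted p = 0.115), with 0.20 and 0.16.

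**Figure D1:**
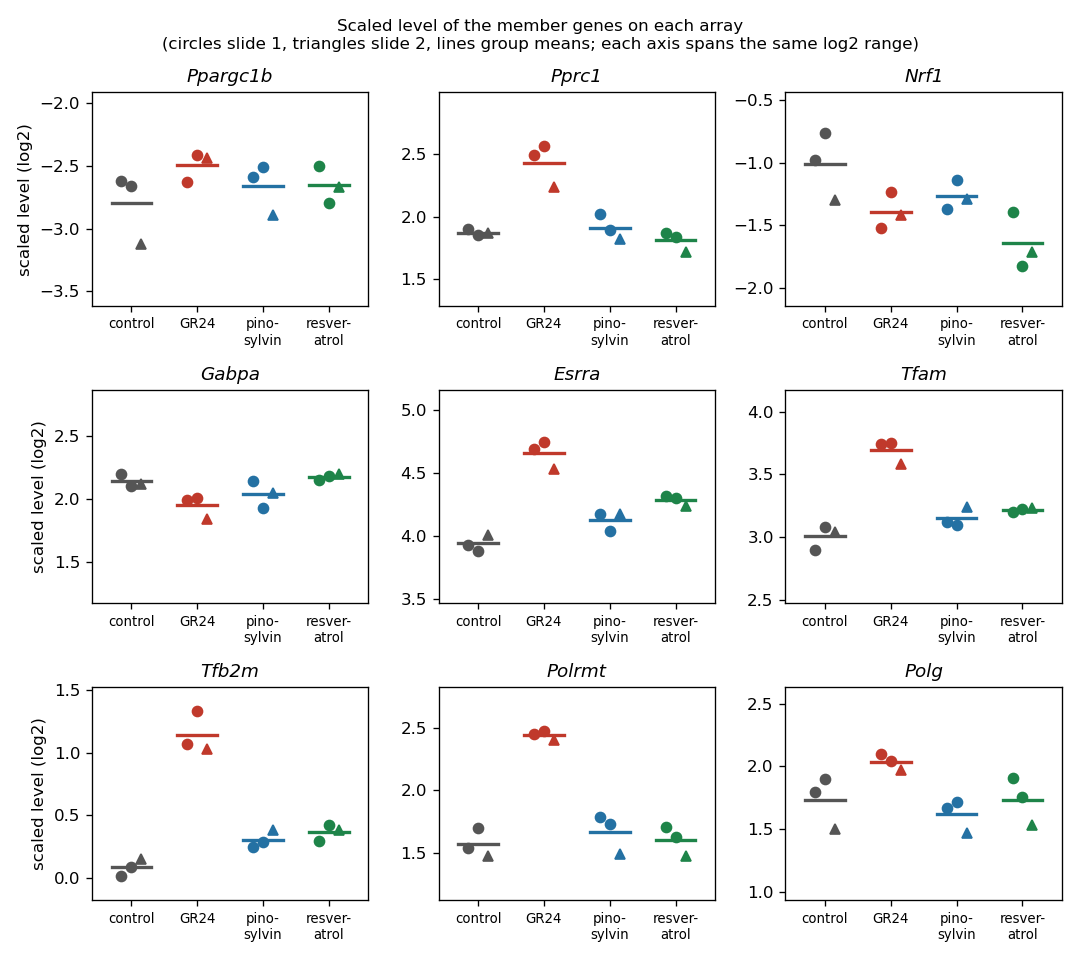
Scaled log2 level of each tested member on each of the 12 arrays, by group, with circles for slide 1, triangles for slide 2 and lines for the group means of 3 arrays. The GR24 arrays lie above all control arrays for *Pprc1*, *Esrra*, *Tfam*, *Tfb2m*, *Polrmt* and *Polg*, and below them for *Gabpa*. The resveratrol arrays lie above all control arrays for *Esrra*, *Tfam* and *Tfb2m*, and below them for *Nrf1*. The pinosylvin arrays lie above all control arrays for *Esrra*, *Tfam* and *Tfb2m*.

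*Tfam* encodes the protein that packs mitochondrial DNA and helps start its transcription. The arrays read 2.90, 3.08 and 3.04 in the control, 3.74, 3.75 and 3.58 with GR24, 3.12, 3.10 and 3.24 with pinosylvin, and 3.20, 3.22 and 3.23 with resveratrol. No compound array fell within the range of the control arrays, and the GR24 arrays lay above all others. The log2 fold change was 0.69 with GR24, or 1.61-fold (SE 0.073, adjusted p = 1.82e-05), with 0.76 on slide 1 and 0.54 on slide 2. It was 0.21 with resveratrol (95% interval 0.05 to 0.37, adjusted p = 0.0815, and 0.0499 with the slide as a block) and 0.15 with pinosylvin (95% interval -0.02 to 0.31, adjusted p = 0.222). Within slides 1 and 2 the resveratrol difference was 0.22 and 0.19, and the pinosylvin difference was 0.12 and 0.20.

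*Tfb2m* encodes the mitochondrial transcription factor that opens the promoter for the mitochondrial RNA polymerase. The scaled levels were 0.02, 0.09 and 0.15 in the control, 1.07, 1.33 and 1.03 with GR24, 0.25, 0.29 and 0.38 with pinosylvin, and 0.30, 0.42 and 0.38 with resveratrol. All arrays of the compounds lay above the control arrays, and the pinosylvin and resveratrol arrays overlapped each other. GR24 gave a log2 fold change of 1.06, or 2.08-fold (SE 0.086, adjusted p = 2.26e-06), the largest among the members, with 1.15 on slide 1 and 0.88 on slide 2. With resveratrol it was 0.29 (SE 0.086, adjusted p = 0.0463), with 0.31 and 0.23, and this call was lost in 17 of 28 alternatives, among them the leaving out of any array other than GR24 replicates 2 and 3, in a range of 0.0185 to 0.144. With pinosylvin it was 0.22 (95% interval 0.03 to 0.41, adjusted p = 0.112), with 0.22 and 0.23.

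*Polrmt* encodes the mitochondrial RNA polymerase, which also makes primers for mitochondrial DNA replication. Its scaled log2 levels were 1.54, 1.70 and 1.48 in the control, 2.45, 2.47 and 2.40 with GR24, 1.79, 1.73 and 1.49 with pinosylvin, and 1.71, 1.63 and 1.48 with resveratrol. The GR24 arrays stood apart from all others, and the pinosylvin and resveratrol arrays overlapped the control. Its log2 fold change with GR24 was 0.86, or 1.82-fold (SE 0.097, adjusted p = 2.64e-05), with 0.84 on slide 1 and 0.92 on slide 2. It was 0.10 with pinosylvin (95% interval -0.12 to 0.31) and 0.03 with resveratrol (-0.19 to 0.25).

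*Polg* encodes the catalytic subunit of the mitochondrial DNA polymerase. Its scaled log2 levels were 1.80, 1.90 and 1.50 in the control, 2.10, 2.04 and 1.97 with GR24, 1.67, 1.72 and 1.47 with pinosylvin, and 1.91, 1.76 and 1.53 with resveratrol. The GR24 arrays lay above the control arrays, and in every group the array of slide 2 was the lowest. The log2 fold change with GR24 was 0.30 (95% interval 0.02 to 0.58, adjusted p = 0.0619), with 0.22 on slide 1 and 0.47 on slide 2. It passed in 12 of 28 alternatives, among them the replicate number as a block (adjusted p = 0.00489) and the leaving out of control replicate 2 (0.0341) or resveratrol replicate 3 (0.0465), in a range of 0.000327 to 0.223 over all alternatives. With an array left out the GR24 value ran from 0.185 to 0.388. The log2 fold change was -0.11 with pinosylvin (95% interval -0.39 to 0.17) and 0.00 with resveratrol (-0.28 to 0.28).

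The order of the groups by mean level was the same for *Esrra*, *Tfam* and *Tfb2m*: GR24 highest, then resveratrol, pinosylvin and the control. For *Esrra* the 4 group means were 4.66, 4.29, 4.13 and 3.94, with SDs of 0.11, 0.043, 0.071 and 0.066 (n = 3 arrays each). For *Tfam* they were 3.69, 3.22, 3.15 and 3.01, with SDs of 0.098, 0.012, 0.075 and 0.091. For *Tfb2m* they were 1.14, 0.37, 0.31 and 0.08, with SDs of 0.16, 0.063, 0.066 and 0.064. The neighbours resveratrol and pinosylvin did not differ past the threshold for any of these 3 genes, nor did pinosylvin and the control.

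**Figure D2:**
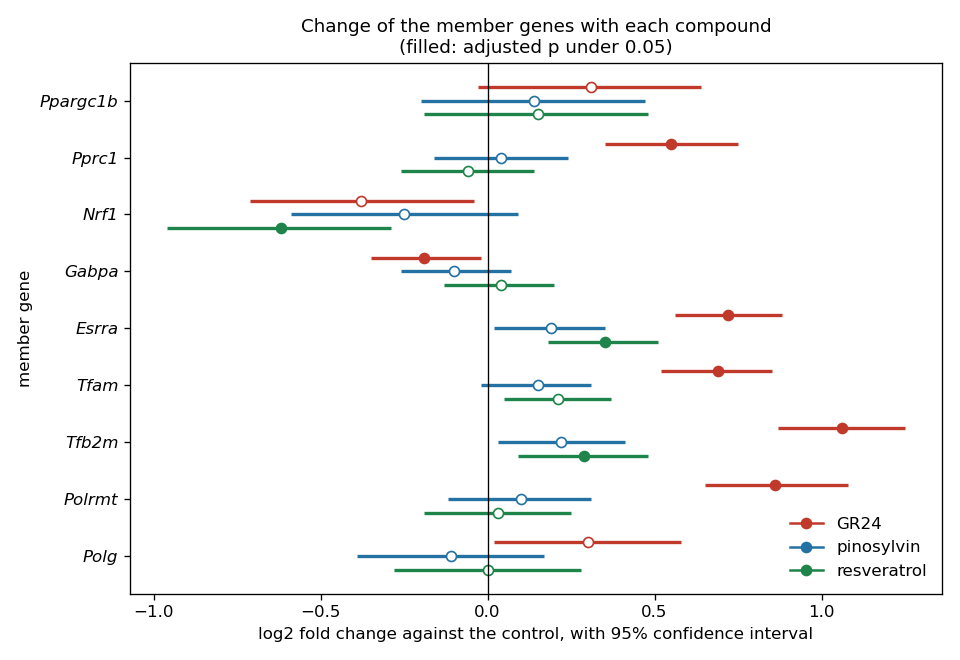
Log2 fold change of each tested member against the control with each compound (points, 3 arrays a group), with 95% confidence intervals from limma (lines) and filled points where the adjusted p was under 0.05. The GR24 intervals for *Pprc1*, *Esrra*, *Tfam*, *Tfb2m* and *Polrmt* lie above 0, from 0.35 to 1.25 in all, and the 3 compounds share the control arrays.

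The compounds were also compared with each other at the same dose and time, so that 6 pairs of groups were compared in all. GR24 against pinosylvin had 6 of 9 members past the threshold, all higher with GR24, where 56.4% of all probes passed. The log2 differences were 0.84 for *Tfb2m*, 0.77 for *Polrmt*, 0.54 for *Tfam*, 0.53 for *Esrra*, 0.52 for *Pprc1* and 0.42 for *Polg*, with adjusted p of at most 0.0158. The *Polg* call was lost without GR24 replicate 1 (adjusted p = 0.0532) or pinosylvin replicate 3 (0.0612), in a range of 0.00011 to 0.0612. Within slides 1 and 2 the differences were 0.93 and 0.65 for *Tfb2m* and 0.69 and 0.91 for *Polrmt*.

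GR24 against resveratrol had 6 of 9 members past the threshold, 5 higher and 1 lower with GR24, where 51.4% of all probes passed. The higher ones were *Polrmt* (0.83), *Tfb2m* (0.77), *Pprc1* (0.61), *Tfam* (0.48) and *Esrra* (0.37), with adjusted p of at most 0.00163. *Gabpa* had -0.23 (adjusted p = 0.0251), a call lost in 8 of 28 alternatives, among them without GR24 replicate 3 (0.0854), resveratrol replicate 2 (0.0616) or resveratrol replicate 3 (0.0704), in a range of 0.0157 to 0.236. For *Polg* the difference was 0.31 (95% interval 0.03 to 0.59, adjusted p = 0.0648, and 0.00517 with the replicate number as a block).

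Pinosylvin and resveratrol are both stilbenes, and resveratrol carries an additional hydroxyl group. Between them 0 of 9 members passed the threshold in limma and 1, *Nrf1*, had an unadjusted p under 0.05, where 14.5% of all probes passed (3528 probes, or 6323 with the replicate number as a block). The pinosylvin minus resveratrol difference of *Nrf1* was 0.37 (95% interval 0.03 to 0.71, adjusted p = 0.139), with 0.35 on slide 1 and 0.42 on slide 2, and the arrays of these groups did not overlap. For *Esrra* it was -0.16 (95% interval -0.32 to 0.00, adjusted p = 0.190), with -0.20 and -0.07, again without overlap. For *Gabpa* it was -0.14 (95% interval -0.30 to 0.03, adjusted p = 0.266), also without overlap. The intervals of the other members were -0.34 to 0.33 for *Ppargc1b*, -0.10 to 0.30 for *Pprc1*, -0.23 to 0.10 for *Tfam*, -0.25 to 0.13 for *Tfb2m*, -0.39 to 0.17 for *Polg* and -0.15 to 0.28 for *Polrmt*, so differences of these sizes between the stilbenes are not excluded by these arrays.

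The genes that work beside the members were described by lists, with the count past the threshold and the median log2 fold change, next to the medians of 0.03 with GR24, 0.05 with pinosylvin and 0.01 with resveratrol over all tested probes. Of all tested probes, 57.1% passed with GR24, 16.6% with pinosylvin and 17% with resveratrol. With the replicate number as a block these shares were 66.6%, 28.6% and 27.9%. Of the genes for mitochondrial DNA replication and the nucleoid, 15 were tested. With GR24 10 were higher and 0 lower, with a median of 0.44 (0.39 on slide 1 and 0.52 on slide 2). *Twnk*, the replicative helicase of mitochondria, had levels of 0.00, 0.02 and -0.20 in the control and 1.73, 1.76 and 1.54 with GR24, or 1.74 more in log2 (SE 0.11, adjusted p = 3.49e-07). *Polg2*, the accessory subunit of the DNA polymerase, had 1.64 (SE 0.13, adjusted p = 2.07e-06), and *Slc25a33*, a pyrimidine nucleotide carrier, had 1.20 (SE 0.11, adjusted p = 7.04e-06). For each of these 3 genes every GR24 array lay above every control array.

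With pinosylvin 2 genes of mitochondrial DNA replication were higher, *Slc25a33* (0.58) and *Twnk* (0.48), and 2 lower, *Mgme1* (-0.47), an exonuclease, and *Top1mt* (-0.30), a topoisomerase. With resveratrol 3 were higher, *Slc25a33* (0.67), *Twnk* (0.44) and *Dguok* (0.27), and 1 lower, *Ung* (-0.69), a uracil glycosylase of DNA repair. *Top1mt* and *Dguok* were named after their values were seen, to complete these counts. Under the replicate block the counts were 3 higher and 3 lower with pinosylvin, and 5 higher and 3 lower with resveratrol.

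Of the genes for mitochondrial transcription and RNA processing, 22 were tested, and with GR24 18 were higher and 0 lower, with a median of 0.56 (0.58 on slide 1 and 0.56 on slide 2). *Elac2*, which cuts the 3′ ends of mitochondrial tRNAs, had levels of -0.36, -0.16 and -0.87 in the control and 1.13, 1.01 and 0.88 with GR24, a rise of 1.47 in log2 (SE 0.18, adjusted p = 5.74e-05). *Mterf4* had 1.07 and *Tbrg4* had 0.98. With pinosylvin 0 were higher and 1 lower, *Tfb1m* (-0.38), a methyltransferase of mitochondrial ribosomal RNA and relative of *Tfb2m*, and with resveratrol 3 were higher, *Supv3l1* (0.44), *Fastkd2* (0.35) and *Fastkd3* (0.27). The replicate block gave 5 higher and 2 lower with pinosylvin, and 8 higher with resveratrol.

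The mitochondrial ribosome had 68 tested genes, of which 42 were higher and 6 lower with GR24, with a median of 0.32 (0.32 on slide 1 and 0.29 on slide 2). *Mrpl38* (1.19), *Mrpl45* (1.07) and *Mrps18b* (0.95) were the largest changes that passed without overlap. The lower ones ranged from -0.89 (*Mrpl23*) to -0.18 (*Mrps22*), both named after their values were seen. With pinosylvin 5 were higher, *Mrps18b* (0.37), *Mrpl52* (0.36), *Mrpl45* (0.28), *Mrpl15* (0.26) and *Mrpl49* (0.25), the last 3 named after their values were seen, and 1 lower, *Mrps12* (-0.32). With resveratrol 9 were higher and 0 lower, with *Mrpl16* (0.49), *Mrpl49* (0.42) and *Mrps18b* (0.42) the largest. The higher counts under the replicate block were 19 with pinosylvin and 24 with resveratrol, and the medians were 0.10 and 0.11.

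Of the mitochondrial translation factors and tRNA synthetases, 22 were tested, and 13 were higher and 0 lower with GR24, with a median of 0.33 (0.33 on slide 1 and 0.38 on slide 2). *Yars2*, the tyrosyl-tRNA synthetase, had 1.20 (SE 0.10, adjusted p = 2.79e-06), *Gfm2*, an elongation factor that recycles ribosomes, had 1.16 (SE 0.085, adjusted p = 1.06e-06), and *Hars2* had 0.89 (SE 0.086, adjusted p = 8.63e-06). With pinosylvin *Fars2* (0.36) was higher and *Pars2* (-0.43) was lower. With resveratrol 3 were higher, *Fars2* (0.42), *Gfm2* (0.33) and *Rars2* (0.22). The replicate block gave 3 higher with pinosylvin and 4 with resveratrol.

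Mitochondrial protein import had 28 tested genes, with 13 higher and 3 lower with GR24 and a median of 0.17 (0.15 on slide 1 and 0.23 on slide 2). *Tomm70*, an import receptor, had levels of 2.25, 2.35 and 2.25 in the control and 3.76, 3.94 and 3.38 with GR24, a rise of 1.41 in log2 (SE 0.13, adjusted p = 6.90e-06). The lower ones were the matrix chaperonin genes *Hspe1* (-0.75) and *Hspd1* (-0.38) and *Tomm7* (-0.24), while the matrix chaperone *Hspa9* was higher (0.74), and *Hspd1* and *Tomm7* were named after their values were seen. With pinosylvin *Hspa9* (0.39), *Timm10* (0.38) and *Hspe1* (0.32) were higher, and with resveratrol *Hspa9* (0.41), *Timm10* (0.31) and *Timm17a* (0.25), with 0 lower in both. Under the replicate block 7 were higher and 1 lower with pinosylvin, and 8 higher and 1 lower with resveratrol. Of all probes, 28.6% and 27.9% passed under this block.

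Mitochondrial dynamics and mitophagy had 21 tested genes, with 15 higher and 2 lower with GR24 and a median of 0.46 (0.51 on slide 1 and 0.46 on slide 2). *Mief1*, a receptor for the fission enzyme, rose by 1.51 in log2 (SE 0.24, adjusted p = 0.000277), with levels of -1.82, -1.71 and -0.74 with GR24 that varied more than the control levels of -3.13, -2.80 and -2.88. *Mtfp1* had 1.03, and *Dnm1l*, the fission enzyme, had 0.94. The lower ones were *Fis1* (-0.36) and *Mff* (-0.33), also proteins of fission and named after their values were seen. With pinosylvin *Pink1* (0.48), a kinase of mitophagy, and *Bnip3l* (0.34), a mitophagy receptor, were higher, and with resveratrol *Pink1* (0.44) and *Oma1* (0.29). Under the replicate block 4 were higher with pinosylvin and 5 with resveratrol.

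Of the respiratory chain and cytochrome genes that textbooks place under NRF-1 and GABP, 21 were tested, and 2 were higher and 8 lower with GR24, with a median of -0.11 (-0.14 on slide 1 and -0.10 on slide 2). These counts moved with the normalization, to 4 higher and 8 lower with quantile normalization (median -0.06) and to 6 higher and 6 lower in the deposited table (median -0.01). *Alas1*, the first enzyme of heme synthesis, had levels of 3.89, 3.93 and 3.47 in the control and 5.18, 5.22 and 4.80 with GR24, a rise of 1.30 in log2 (SE 0.16, adjusted p = 4.05e-05), and *Surf1*, an assembly factor of cytochrome oxidase, had 0.50 (SE 0.068, adjusted p = 9.73e-05). Both encode proteins that make or assemble the chain and are not subunits of it. The 8 lower genes ranged from -0.52 (*Cycs*, cytochrome c) to -0.18 (*Sdhb*, named after its value was seen). *Cycs* had levels of 5.56, 5.73 and 5.56 in the control and 5.15, 5.10 and 5.05 with GR24, all below the control. With pinosylvin 0 of 21 passed in limma and 1 had an unadjusted p under 0.05, and with the replicate number as a block 3 were higher. With resveratrol 0 passed, 0 had an unadjusted p under 0.05, and the medians were 0.09 with pinosylvin and 0.01 with resveratrol. None of the 26 names searched for transcripts of mitochondrial DNA itself matched a probe, and those transcripts were not analysed here.

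**Figure D3:**
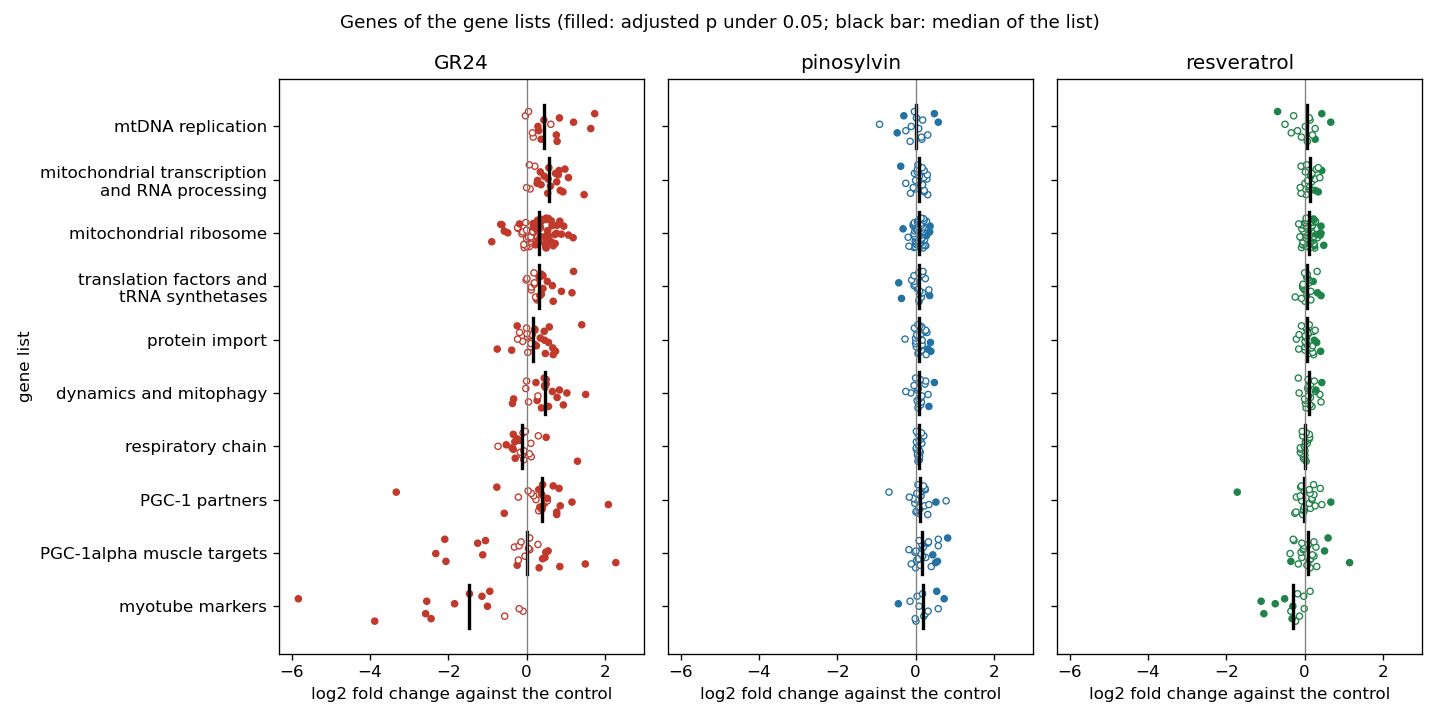
Log2 fold change of each tested gene of the lists against the control with GR24, pinosylvin and resveratrol (points, filled where the adjusted p was under 0.05), with the median of each list as a black bar. The myotube markers are the only marker list drawn, and among the 10 lists drawn the GR24 medians run from -1.46 to 0.56 and those of the other compounds from -0.30 to 0.18; genes that were not well above background in 1 group are drawn at their fitted value.

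Partners and regulators of the PGC-1 coactivators had 25 tested genes, with 14 higher and 3 lower with GR24 and a median of 0.39 (0.39 on slide 1 and 0.33 on slide 2), the same with the gene given as a bound set at its bound. *Prkaa2*, a catalytic subunit of the energy sensor AMPK, had levels of -3.65, -3.81 and -3.42 in the control, -7.05, -6.69 and -7.12 with GR24, -3.89, -4.88 and -4.16 with pinosylvin, and -5.70, -4.97 and -5.35 with resveratrol. It was not well above background on any GR24 or resveratrol array. Its signal was lower by at least 2.08 in log2 with GR24, or at least 4.22-fold (adjusted p = 1.52e-06). For such a bound any array on which the probe fell under the lowest level well above background was set to that level. With resveratrol its levels lay above that lowest level on all 3 arrays, so nothing was set. The signal was also lower there (adjusted p = 0.00121), but no fold change is given for a probe not well above background. *Thra* (-0.76), a thyroid hormone receptor, and *Cnot6l* (-0.57) were also lower with GR24, and both were named after their values were seen.

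*Myc*, a transcription factor, was higher with all 3 compounds, by 1.16 with GR24 (SE 0.082, adjusted p = 8.22e-07), 0.52 with pinosylvin (SE 0.082, adjusted p = 0.00181) and 0.67 with resveratrol (SE 0.082, adjusted p = 0.000371). It was the only gene of this list past the threshold with pinosylvin, and with resveratrol the only one besides *Prkaa2*. Fitted with the replicate block, 3 were higher with pinosylvin, and 3 higher and 2 lower with resveratrol. *Lpin1*, a coactivator of fat oxidation genes, had a log2 fold change of 2.09 with GR24 (SE 0.50, adjusted p = 0.00424), from levels of -3.76, -1.58 and -3.85 against -4.82, -5.58 and -5.07. GR24 replicate 2 stood far above the other 2 GR24 arrays, and the probe was well above background on 1 control array.

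Of the known muscle target genes of PGC-1α, 24 were tested, and with GR24 8 were higher, 7 were lower and 9 did not pass, where 31.5% of all probes were higher and 25.5% lower, with a median of 0.01 (0.01 on slide 1 and 0.06 on slide 2), also with 2 genes at their bounds. *Cat*, catalase, had levels of -1.05, -1.16 and -1.02 in the control, 1.20, 1.29 and 1.13 with GR24, -0.52, -0.48 and -0.70 with pinosylvin, and -0.06, 0.30 and -0.02 with resveratrol. The 4 groups did not overlap, and the log2 fold changes were 2.28, 0.51 and 1.15 (SE 0.10 each). *Fndc5*, which encodes the precursor of irisin, had levels of -1.73, -1.80 and -1.93 in the control and -4.23, -4.44 and -3.76 with GR24, a log2 difference of -2.32 (SE 0.15, adjusted p = 3.28e-07), and was well above background on 2 of the 3 GR24 arrays. *Ucp3*, an uncoupling protein of muscle, was not well above background on any GR24 array, and its signal was at least 3.06-fold lower (adjusted p = 1.82e-05).

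With pinosylvin 5 of the 24 target genes were higher and 0 lower, with a median of 0.18. *Vegfa*, an angiogenic factor, had levels of 1.23, 1.42 and 1.40 in the control and 2.14, 2.16 and 2.20 with pinosylvin, a rise of 0.82 in log2 (SE 0.068, adjusted p = 2.07e-05), and the others were the fatty acid transporter gene *Cd36* (0.56), *Cat* (0.51), *Fabp3* (0.44), the fatty acid binding protein of muscle, and the glucose transporter gene *Slc2a4* (0.31). With resveratrol 3 were higher, *Cat* (1.15), *Vegfa* (0.60) and *Hadh* (0.51), a gene of fatty acid oxidation, and 1 lower, *Cd36* (-0.35), with a median of 0.08. *Slc2a4*, *Fabp3* and, with resveratrol, *Cd36* were named after their values were seen. With the replicate number as a block 9 were higher and 1 lower with pinosylvin, and 6 higher and 2 lower with resveratrol.

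Promoter windows were found for all 10 members in the RefSeq promoter table of the rat build GRCr8, which holds 33469 windows of 300 bases, 250 before and 50 after the gene's start. The windows were searched on both strands for short motifs of the factors above. The ETS core CGGAAG, the kind of site GABP binds, was in the windows of *Gabpa*, *Tfam*, *Tfb2m*, *Polg* and *Polrmt*, and in 16.6% of all windows. With 1 more base, as CGGAAGT, which contains that core, it was in *Tfam*, *Tfb2m* and *Polg* and in 6.32% of all windows. The NRF-1 core CGCATGCG was in *Gabpa* and *Tfb2m* and in 1.66% of all windows. The ERR motif AAGGTCA was in 0 members and in 4.61% of all windows, and that says only that these letters are not in these windows.

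The other motifs searched were the cyclic AMP response element TGACGTCA, in *Ppargc1a* and in 1.83% of all windows, its core TGACG, which lies within it, in *Ppargc1a* and *Polg* and in 21.2% of all windows, the YY1 motif AAGATGGC, in *Ppargc1b* and *Gabpa* and in 3.17% of all windows, and the Sp1 box GGGCGG, in 6 members and in 33.1% of all windows. The last 100 bases before the start are shown for the 3 factors of mitochondrial transcription, *Tfam*, *Tfb2m* and *Polrmt*, which were all higher with GR24. Capitals mark the ETS core on either strand (CGGAAG, or CTTCCG where it lies on the other strand) and the NRF-1 core, and a match is a description of the letters. The stretches are chr20:17355273-17355372 on the + strand for *Tfam*, chr13:93828595-93828694 on the - strand for *Tfb2m* and chr7:10610096-10610195 on the + strand for *Polrmt*, each 5′ to 3′ along the gene's strand.
Tfam: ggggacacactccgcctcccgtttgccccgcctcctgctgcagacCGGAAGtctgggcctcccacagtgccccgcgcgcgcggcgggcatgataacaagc
Tfb2m: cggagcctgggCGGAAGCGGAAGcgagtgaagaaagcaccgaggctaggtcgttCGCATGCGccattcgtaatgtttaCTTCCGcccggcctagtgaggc
Polrmt: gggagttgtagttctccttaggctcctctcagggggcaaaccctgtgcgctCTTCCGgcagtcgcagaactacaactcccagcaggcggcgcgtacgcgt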

How the data were processed

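RNA of 12 cultures was measured on 1-colour Agilent arrays. The authors deposited the scanner output of Agilent Feature Extraction 12.0.0.7, whose processed signal is a spot intensity, corrected for background on each array and not normalized between arrays. The authors also deposited a table of log2 values for 25848 probes; its background correction and normalization are not given in the sources used here, the log2 median signal of each array had a correlation of 0.9994 to 0.9997 with its column there, the column medians were 9.208 to 9.245, and the table served as an alternative.

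On each array, 58.0% to 64.3% of 58717 spots were well above background, and 0 spots were saturated. Control spots were left out and outlier spots set to missing, the spots of a probe were averaged on the log2 scale, and the 75th percentile of the array over 45598 probes was subtracted. A probe counted as well above background where at least 0.5 of its spots did, and was tested if that held on all 3 arrays of at least 1 group. Models were fitted with limma 3.58.1 in R 4.3.3 (lmFit with a mean per group, eBayes, Benjamini-Hochberg). The fit was also run on simulated arrays with independent noise, no slide effect and few changed probes. The real arrays differ from that setting, so the simulation does not bear on the calls given here. RefSeq accessions named 21109 probes (46.3%) through a gene table of the assembly GRCr8, used for names.

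The members and lists were chosen with earlier results of these data known. The genes named are the members and, from each list and compound, up to 3 called genes with the largest change and no overlap between the arrays of the groups. Cell-type markers and the genes of like profile were named apart from this rule. Other genes added beyond it are marked where they appear. Deviations from the group means of same-numbered arrays, which shared a slide, correlated at 0.191 to 0.744 in all 18 pairs. Within slide 1 these correlations were 0.191 to 0.470, and those of different numbers were 0.222 to 0.475. Slide 2 held only replicate 3, with 0.638 to 0.744. Arrays on different slides correlated at -0.663 to -0.324. These values do not show a pairing by replicate number apart from the slide. The fit behind the calls had no block, and the replicate number and the slide served as blocks among the alternatives.

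Alternatives were quantile normalization, normexp (offset 50, on the median signals because the files hold no mean signal) with either normalization, the deposited table, dim probes kept in the test, a restriction to the probes well above background on 12 of 12 arrays, the percentile over such probes, a block for the slide or for the replicate number, only slide 1, eBayes with trend and robust settings, outlier spots kept, only the 6 arrays compared, a gene's tested probes averaged and each array left out. The percentile over all spots and the deposited table with the slide as a block were added after the data were seen.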

Additional observations from a re-analysis of the deposited data

How the results depend on the processing

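Over 1512 member values under the alternatives, 1406 kept their sign and their side of the threshold, 51 were no longer called, 37 became called and 18 changed sign; the causes were not tested. The GR24 increases of *Pprc1*, *Esrra*, *Tfam*, *Tfb2m* and *Polrmt* and the resveratrol increase of *Esrra* were called in all 28 alternatives. Probes called with pinosylvin against the control, 4019, became 6947 with the replicate block, 7074 with the slide as a block, 2409 with no filter on dim probes, 2479 with only the 6 arrays compared and 6276 with the deposited table and the slide as a block. With resveratrol 4123 became 6769 with the replicate block, 6869 with the slide block, 2680 with no filter and 6358 with the deposited table and slide block. Between pinosylvin and resveratrol 3528 became 6323 with the replicate block, 6443, 1975 and 5572 in the same order, and 2148 to 3683 with an array left out. Members called with resveratrol, 3, became 1 with no filter and with only the 6 arrays compared, and 1 to 3 with an array left out. The following values, none of them called, changed sign. *Polrmt* with resveratrol became -0.00478 with normexp and quantile normalization, *Ppargc1b* with resveratrol -0.00830 on slide 1 alone, *Gabpa* between GR24 and pinosylvin 0.00503 in the deposited table with or without the slide block, *Nrf1* between GR24 and resveratrol -0.0250 as the mean over its probes, and *Ppargc1b* between pinosylvin and resveratrol 0.0309 with normexp, 0.0986 on slide 1 alone and 0.0115 with the percentile over all spots. With an array left out, *Ppargc1b* with pinosylvin ran from -0.0243 to 0.251, *Pprc1* with pinosylvin from -0.0169 to 0.0805, *Ppargc1b* with resveratrol from -0.0155 to 0.234, *Polg* with resveratrol from -0.122 to 0.0982, *Polrmt* with resveratrol from -0.0235 to 0.0952 and *Ppargc1b* between pinosylvin and resveratrol from -0.0869 to 0.106. With the percentile over all spots, 64.1% of the probes called between GR24 and resveratrol were higher with GR24, against 53.4%. Between GR24 and the control this share was 63.3%, against 55.3%. There 9223 probes were higher and 5358 lower, against 7658 and 6196.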
